A study of Mus musculus with 6 samples.

Results

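The glycolytic enzymes described here are 10 genes chosen by name from a table of 20015 gene rows: Gpi1, Pfkm, Pfkfb3, Aldoa, Tpi1, Gapdh, Pgk1, Pgam2, Eno3 and Pkm. All 10 were in the table and all 10 passed the filter on low counts that left 16095 genes for testing. RNA from skeletal muscle was sequenced in 6 libraries, 3 from the quadriceps of limbs with a torn anterior cruciate ligament (ACL), a ligament of the knee, and 3 from quadriceps without that injury. The title of the series is about depressed protein synthesis and anabolic signals in muscle loss after the tear, and the design text places sampling ahead of surgical repair of the ligament. The labels give no age, sex, strain, or time since injury, and do not say whether the libraries came from separate individuals, so p-values cover no more than the spread from library to library, part or all of which may be technical. The libraries carry the letters A, B and C in both groups, and the labels do not say what a letter stands for. The organism label is mouse and the rows are mouse gene models, whereas the extraction and design texts speak of human quadriceps. The table's own name calls the RNA myonuclear, whereas the protocol describes total RNA.

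Glycolysis splits glucose into pyruvate in the cytosol and yields ATP without oxygen. Fast skeletal muscle fibres hold these enzymes at very high levels and use them for short, strong contractions. Several steps are run there by a muscle isozyme (phosphofructokinase PFKM, phosphoglycerate mutase PGAM2, enolase ENO3) that replaces the form found in most other cells. Pfkfb3 stands beside the chain: its product makes fructose 2,6-bisphosphate, the strongest activator of phosphofructokinase.

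No member passed the test between injured and non-injured quadriceps in the fit without the letters, but all 10 had a negative log2 fold change, with a median of -0.39 (9 were negative with upper quartile scaling and 8 with counts scaled to fast-fibre genes). In the same fit 8009 of all 16095 genes were negative, and 455 of the 603 genes with a mean of 1000 counts or more. In the fit with the letter as a block, 5 of the 10 fell: Gpi1, Pfkfb3, Tpi1, Pgam2 and Eno3, by 0.43 to 0.57 on the log2 scale, where 2.65% of all genes tested were called lower (16.1% of those with a mean of 1000 counts or more). Without the letter B pair that fit called 1 of the 10, Pfkfb3, against 1.29% of all genes. With counts scaled to 6 or 9 fast-fibre genes the blocked fit called 0, against 0.118% and 0.317% of all genes. The counts on the 10 genes together made 6715, 6422 and 7779 CPM (counts scaled to a common library size) in injured A, B and C and 8634, 8312 and 7829 CPM in non-injured A, B and C. The injured libraries all lay below the non-injured ones, closely so for injured C against non-injured C. Without Pfkfb3, the most variable member, the groups overlapped, with injured C at 6998 and non-injured C at 6765 CPM. Aldoa and Pkm, 2 abundant members, differed by less than the spread between libraries.

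Depth was 6.46, 6.45 and 7.50 M counts in the injured and 7.91, 8.75 and 7.23 M in the non-injured libraries (letters A, B and C). CPM were taken over these totals scaled by the trimmed mean of M-values (TMM). Injured libraries held more counts from the mitochondrial genome (10.7% against 6.82% of the scaled totals) and from macrophage and fibroblast markers, as given beside the results on fibre genes below.

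Near-identical copies limit what some of the rows can tell. Processed pseudogenes are copies of an mRNA pasted into the genome, and short reads from the gene match them as well. Bases 301 to 360 of the coding sequence, counted from the start codon in the GENCODE M21 annotation of the mm10 build, are shown for Pgk1 and Gapdh with a copy of each, because most of the counts of both families lie on copies.
Pgk1: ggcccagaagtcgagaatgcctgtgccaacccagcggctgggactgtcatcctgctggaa
Pgk1-rs7: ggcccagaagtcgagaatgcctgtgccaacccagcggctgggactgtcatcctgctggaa
Gapdh: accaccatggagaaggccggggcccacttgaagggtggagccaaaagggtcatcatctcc
Gm7336: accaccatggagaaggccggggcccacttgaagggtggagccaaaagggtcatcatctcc
Neither copy has a mismatch (0) in this stretch, and both are 100% identical to the gene over 1250 and 999 aligned bases of coding sequence. A read from inside such a stretch cannot be told apart between gene and copy. How the authors shared such reads among rows is not given in the sources used here.

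The muscle isozymes are far easier to separate from the widespread forms. The same bases are shown for Pgam2 and Eno3 with their non-muscle counterparts Pgam1 and Eno1, with every base that differs from the muscle gene in capitals.
Pgam2: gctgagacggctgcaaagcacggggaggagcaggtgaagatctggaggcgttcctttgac
Pgam1: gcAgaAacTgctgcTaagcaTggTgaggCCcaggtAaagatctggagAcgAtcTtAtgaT
Eno3: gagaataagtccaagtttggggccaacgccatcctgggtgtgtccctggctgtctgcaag
Eno1: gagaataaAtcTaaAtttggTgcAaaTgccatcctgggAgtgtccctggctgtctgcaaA
Pgam1 differs from Pgam2 at 14 of these 60 bases, and the coding sequences are 76.4% identical over 754 aligned bases. Eno1 differs from Eno3 at 8 of the 60 and is 79.3% identical over 1092 aligned bases. No row of the table with 90% or more identity over at least 300 bases was found for Pfkm, Pfkfb3, Pgam2 or Eno3 (0 copies each).

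Gpi1, glucose-6-phosphate isomerase, turns glucose 6-phosphate into fructose 6-phosphate and lies on mm10 chromosome 7, 34201330 to 34230337. It was at 299, 270 and 313 CPM in injured A, B and C, and at 394, 421 and 378 CPM in non-injured A, B and C. Every injured library lay below every non-injured one (294 ± 22.2 against 397 ± 21.8 CPM, SD, n = 3). The log2 fold change was -0.44 ± 0.13 (SE, edgeR adjusted p 0.147), and with the letter block it was -0.44 (edgeR adjusted p 0.0268). One pseudogene row, Gpi-ps, held 14.3% of the counts of gene and copy, and their sum was also lower without overlap, at 344 ± 26.7 against 463 ± 19.6 CPM (SD, n = 3).

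Pfkm, the muscle phosphofructokinase, runs the committed step of the chain and lies on chromosome 15, 98092589 to 98132452. Injured A, B and C held 749, 818 and 851 CPM and non-injured A, B and C held 964, 1063 and 998 CPM. The groups did not overlap, and all 3 letters showed a lower injured value. The log2 fold change of -0.32 ± 0.13 missed the threshold without the block (edgeR adjusted p 0.266) and with it (edgeR adjusted p 0.0816).

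Pfkfb3, which makes the activator of that step, lies on chromosome 2, 11471433 to 11554078, and varied more between libraries than any other member. It was at 655, 408 and 781 CPM in injured A, B and C, and at 1209, 499 and 1064 CPM in non-injured A, B and C. Both letter B libraries were low, and injured A and C lay between the non-injured values, so that the groups overlapped. The coefficient of variation was 30.8% in injured and 40.6% in non-injured libraries. Within letters A, B and C the log2 difference was -0.88, -0.29 and -0.45. The fits gave a log2 fold change of -0.59 ± 0.29 without the block (SE, edgeR adjusted p 0.358) and -0.54 ± 0.12 with it (SE, edgeR adjusted p 0.0172).

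Aldoa, the muscle aldolase, cuts fructose 1,6-bisphosphate into 2 triose phosphates and was the most abundant member (chromosome 7, 126795234 to 126809109). Injured A, B and C held 2648, 2910 and 3494 CPM and non-injured A, B and C held 3175, 3152 and 2781 CPM. The highest library, injured C, and the lowest, injured A, were both injured. Its log2 fold change was -0.01 ± 0.14 (SE, edgeR adjusted p 0.983), and letter C, at 0.33, went against letters A and B, at -0.26 and -0.12.

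Tpi1, triosephosphate isomerase, interconverts the 2 triose phosphates (chromosome 6, 124810586 to 124814297). It was at 181, 142 and 170 CPM in injured A, B and C, and at 244, 278 and 205 CPM in non-injured A, B and C. The groups did not overlap. Its fold change on the log2 scale was -0.56 ± 0.16 (SE, edgeR adjusted p 0.113) and -0.55 with the block (edgeR adjusted p 0.0175). The difference was widest in letter B, at -0.96, and narrowest in letter C, at -0.27.

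Gapdh, glyceraldehyde-3-phosphate dehydrogenase, makes the first high-energy phosphate of the chain and often serves as a reference gene (chromosome 6, 125161715 to 125166468). Its row held 347, 285 and 375 CPM in injured A, B and C, and 437, 470 and 379 CPM in non-injured A, B and C. The groups stood apart only by the gap between injured C and non-injured C, and letter C differed by -0.02 on the log2 scale. On the log2 scale the fold change was -0.35 ± 0.15 (SE, edgeR adjusted p 0.286), and with the block the adjusted p from edgeR was 0.103. A set of 52 pseudogene rows held 56.9% of the counts of gene and copies. These copies alone were at 496 ± 37.9 CPM in injured and 522 ± 64.2 CPM in non-injured libraries (SD, n = 3). With the copies added, injured A, B and C stood at 824, 756 and 914 CPM against 1002, 1024 and 828 CPM, and the groups overlapped. The log2 fold change of that sum was -0.20 in the edgeR fit (adjusted p 0.558; 0.378 with the block), a smaller difference than on the gene's own row.

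Pgk1, phosphoglycerate kinase, makes the first ATP of the chain (chromosome X, 106187100 to 106203700). Its row was the lowest of the 10, at 67.4, 41.7 and 55.8 CPM in injured A, B and C, and 80.4, 61.0 and 57.8 CPM in non-injured A, B and C. The groups overlapped, and the log2 fold change of -0.27 ± 0.19 missed the threshold (edgeR adjusted p 0.533; 0.187 with the block). The copies Pgk1-rs7 and Gm5537 held 60.8% of the counts of the family. With both added the level was 137 ± 24.7 CPM in injured and 172 ± 32.3 CPM in non-injured libraries (SD, n = 3), with a log2 fold change of -0.32 (edgeR adjusted p 0.403; 0.0867 with the block).

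Pgam2, the muscle phosphoglycerate mutase, moves the phosphate of phosphoglycerate ahead of the enolase step (chromosome 11, 5801640 to 5803734). It was at 378, 380 and 439 CPM in injured A, B and C, and at 508, 624 and 485 CPM in non-injured A, B and C. The groups did not overlap, with letter B again the widest pair. The log2 fold change was -0.43 ± 0.15 (SE, edgeR adjusted p 0.186), and -0.43 with the block (edgeR adjusted p 0.0441).

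Eno3, the muscle enolase, makes phosphoenolpyruvate and lies on the same chromosome (11, 70657202 to 70662514). Injured A, B and C held 554, 543 and 607 CPM and non-injured A, B and C held 740, 996 and 809 CPM. All injured libraries lay well below all non-injured ones (568 ± 34.1 against 848 ± 132 CPM, SD, n = 3). Of the members it had the smallest adjusted p, both without the block (log2 fold change -0.58 ± 0.15, SE, edgeR adjusted p 0.0851) and with it (-0.57, edgeR adjusted p 0.0107). DESeq2 called it without the block (adjusted p 0.0109), and so did edgeR once both letter A libraries were left out (adjusted p 0.0262), where 0.799% of all genes were called lower.

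Pkm, pyruvate kinase, makes pyruvate and the last ATP (chromosome 9, 59656368 to 59679376). It was at 837, 624 and 692 CPM in injured A, B and C, and at 883, 748 and 672 CPM in non-injured A, B and C. The groups overlapped, and letter A was highest in both. The log2 fold change was -0.10 ± 0.16 (SE, edgeR adjusted p 0.816). Its splice forms, PKM1 of muscle and PKM2, are summed in this row. The row Gm6560, 98.5% identical to the coding sequence of Pkm over 1591 aligned bases, and 3 other copies held 14.3% of the counts of gene and copies.

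Counted over the whole set, 0 of 10 members passed edgeR's test in either direction at an adjusted p under 0.05, and 6 had an unadjusted p under 0.05, as did 15.4% of all genes and 25.2% of the 603 genes with a mean of 1000 counts or more. Over all genes tested the same fit called 5 lower (0.0311%) and 115 higher (0.715%). DESeq2 called 2 members lower, Tpi1 and Eno3, against 0.466% of all genes and 25 of those 603. With limma-voom 0 members were called lower, against 0.0373% of all genes and 0 of the 603. With the letter block edgeR called 5 members lower and 0 higher, against 3.21% of all genes and 24 of the 603 called higher.

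Abundant genes as a whole were lower in the injured libraries. The median log2 fold change was 0.00 over all 16095 genes and -0.14 over the 603 genes with a mean of 1000 counts or more per library, against -0.39 over the 10 members. With the block 16.1% of those 603 genes were called lower. Groups that did not overlap, with injured lower, were found for 6 of 10 members, for 9.57% of all genes and for 24.9% of the abundant ones. No member (0) was higher without overlap, against 11.9% of all genes and 33 of the 603 abundant ones. All members but Pgk1 belong to the 603.

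The 3 letters did not weigh equally. The median log2 difference over the 10 members was -0.38 in letter A, -0.59 in letter B and -0.19 in letter C, and 10, 10 and 8 members were lower. Lower in letters A, B and C were 8312, 7938 and 8000 of all 16095 genes, and 476, 453 and 363 of the 603 abundant genes. The medians of those 603 were -0.16, -0.20 and -0.09. With the block but without the letter B pair, edgeR called 1 member lower, Pfkfb3 (adjusted p 0.00535), against 1.29% of genes, and Eno3 had an adjusted p of 0.147. Without the letter A pair it called 2, Tpi1 and Eno3, against 2.03% of genes. Without the letter C pair it called 6, the 5 above and Gapdh, against 1.83% of genes. The share called among the 603 abundant genes was not counted for the fits without a letter pair.

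Levels can be set against each other only per length, here as CPM per kilobase of annotated exon. In non-injured libraries the order was Aldoa (818 ± 59.6), Pgam2 (641 ± 88.9), Eno3 (488 ± 76.1), Pfkm (302 ± 15.0), Pkm (153 ± 21.3), Pfkfb3 (122 ± 49.7), Gapdh (104 ± 11.2), Tpi1 (88.1 ± 13.2), Gpi1 (61.6 ± 3.37) and Pgk1 (29.6 ± 5.44; SD, n = 3 each). Neighbours from Pkm to Tpi1 overlapped in their library ranges, and the others did not. In injured libraries the order was the same, from Aldoa at 813 ± 117 to Pgk1 at 24.5 ± 5.72 CPM per kilobase (SD, n = 3), with Pfkfb3 and Gapdh, at 81.3 and 81.2, overlapping. The places of Gapdh and Pgk1 rest on rows that hold less than their pseudogene copies do, and the exon length joins all annotated transcripts of a gene, which puts genes with long minor transcripts lower. The Aldoa row joins 2 annotated genes of that name.

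Of 9 fast-fibre markers, 7, 9 and 2 had a lower injured value in letters A, B and C. The sum of 6 of them, Ckm, Acta1, Tnnt3, Mylpf, Pvalb and Myh4, was 30381, 27836 and 35269 CPM in injured A, B and C against 39272, 36906 and 31530 CPM, and the groups overlapped (log2 ratio of means -0.20). Myh4 alone held 17820 of the mean 31162 CPM in injured and 22126 of 35902 CPM in non-injured libraries (log2 fold change -0.31). Ckm, Acta1, Tnnt3, Mylpf and Pvalb were at 0.01, -0.02, -0.03, -0.15 and -0.39. With Myh1, Myh2 and Atp2a1 added, the sum of all 9 markers overlapped too (-0.15). Of the 9, 0 passed the test without or with the block, and their median log2 fold change was -0.08. In bulk tissue fewer fibres of a kind and less RNA per fibre cannot be told apart.

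Set against the sum of 6 fast-fibre genes, of which Myh4 was the largest part, the members differed less. Their summed level differed by -0.04 on the log2 scale instead of -0.24, and the median fold change of the members was -0.19, with 8 of 10 negative. No member (0) was called lower by edgeR without or with the block, where 0.00621% and 0.118% of all genes were. In either fit 1 member had an unadjusted p under 0.05. The same scaling put the median of all genes at 0.21 and that of the abundant genes at 0.06. Scaled to all 9 markers, the members' summed level differed by -0.09 and their median was -0.24, with 8 of 10 negative. The fit called 0 members lower without and with the block, where 0.0186% and 0.317% of all genes were, and 2 and 3 members had an unadjusted p under 0.05. The share of all genes with an unadjusted p under 0.05 was not counted for either scaling, so these counts of members have no background. Per 1000 fast-fibre counts, Gpi1 was at 9.83, 9.69 and 8.88 in injured A, B and C against 10, 11.4 and 12, and Tpi1 was at 5.95, 5.12 and 4.83 against 6.22, 7.53 and 6.50. In these 2 the groups did not overlap, and in the other 8 they did. Per that sum 1.65% of all genes and 2.82% of the abundant ones were lower without overlap. Eno3 differed by -0.36, Tpi1 by -0.35 and Pfkfb3 by -0.33 on the log2 scale, while Aldoa and Pkm turned to 0.19 and 0.11.

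Summed markers of macrophages, fibroblasts and adipocytes stood apart between the groups, and those of the erythroid, slow-fibre and endothelial lists overlapped. Macrophage markers summed to 169, 92.1 and 131 CPM in injured A, B and C against 59.7, 50.6 and 46.6 CPM, and 3 of 7 tested rose (6 with the block). Fibroblast markers summed to 421 to 697 CPM in injured and 166 to 215 CPM in non-injured libraries, and 2 of 5 rose, Col1a1 and Col3a1. Dcn had a mean of 70.7 against 70.5 CPM, and Pdgfra and Lum, at 0.45 and 0.42 on the log2 scale, missed the threshold. Erythroid markers summed to 324, 266 and 132 CPM against 83.8, 151 and 71.3 CPM, overlapping, where 1 of 5 rose (4 with the block). Slow-fibre markers summed to 254, 666 and 465 CPM in injured A, B and C and to 101, 554 and 462 CPM in non-injured A, B and C, low in both letter A libraries. Endothelial markers overlapped, at 71.5 to 79.6 against 64.1 to 73.7 CPM, and adipocyte markers were lower, at 35.8 to 45.2 against 52.9 to 78.7 CPM, with 2 of 4 called with the block. No marker of these lists was at 0 in every library. The part of these cells in the members' differences was not tested.

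Muscle isozymes were also compared with their widespread counterparts inside each library, where the scaling between libraries does not enter. Pgam2 held 32.4, 26.9 and 48.4 counts per count of Pgam1 in injured A, B and C and 61.3, 94.6 and 70.9 in non-injured A, B and C, a log2 difference of -1.09. The ratio of Pfkm to Pfkl and Pfkp, the liver and platelet forms, was 55.7, 47.5 and 58.7 against 69.5, 103 and 96.1, a log2 difference of -0.71. Both ratios were lower in every injured library, with an exact permutation p of 0.1, the smallest that 3 against 3 libraries allow, and 0.2 adjusted over 6 ratios.

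Enolase overlapped between groups. The ratio of Eno3 to Eno1 was 18.4, 29.7 and 35.8 in injured A, B and C against 24.6, 53.8 and 52.5 (log2 difference -0.61, exact permutation p 0.3), lower in the injured library of each letter. The ratio of Pfkfb3 to Pfkfb1, a form of muscle and liver, was 15.3, 9.34 and 17.7 against 28.9, 8.24 and 16.0 (log2 difference -0.20, exact permutation p 0.9). That ratio differed by -0.92 in letter A and by 0.18 and 0.15 in letters B and C.

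The non-muscle side of these ratios rests on low rows, some of which have copies of their own. Pgam1 itself was at 11.6, 14.1 and 9.11 CPM in injured and 8.29, 6.54 and 6.83 CPM in non-injured libraries, higher without overlap (log2 fold change 0.68 ± 0.23, SE, edgeR adjusted p 0.191; 0.0792 with the block). A pseudogene row of Pgam1, Pgam1-ps2, is 100% identical over 765 bases and held a mean of 27.7 counts per library. Eno1 has 3 near-identical rows, of which the largest, Eno1b, is annotated as protein-coding and held a mean of 136 counts.

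In the 6 lists of neighbouring genes that follow, edgeR without the block, DESeq2 and limma-voom each called 0 genes, and with the block 2.65% of all genes were called lower. An unadjusted edgeR p under 0.05 was reached by 3 hexokinases, 2 isozymes or related enzymes and 2 genes of lactate dehydrogenase and shuttles. It was reached by 0 of pyruvate dehydrogenase, 0 of the pentose phosphate list and 2 regulators. The step before Gpi1, the phosphorylation of glucose, is run by hexokinases, of which 5 were tested. Hk2, the insulin-responsive form of muscle, was at 280, 332 and 315 CPM in injured A, B and C against 257, 336 and 314 CPM, overlapping (log2 fold change 0.03 ± 0.15, SE). Hk1, the form of most tissues, was at 9.34, 7.49 and 6.55 CPM against 4.72, 3.56 and 4.02 CPM, higher in every injured library (log2 fold change 0.93 ± 0.27, SE, edgeR adjusted p 0.133; 0.0505 with the block). The ratio of Hk2 to Hk1 was 30.0, 44.3 and 48.2 against 54.5, 94.5 and 78.1 (log2 difference -0.88, exact permutation p 0.1). Adpgk, which phosphorylates glucose with ADP, fell with the block (-0.41 ± 0.16 without it, edgeR adjusted p 0.266; 0.0375 with it). That call was lost without the letter B pair (edgeR adjusted p 0.143) and without the letter C pair (0.136). It was also lost with counts scaled to 6 fast-fibre genes (edgeR adjusted p 0.736). There 19 of 16095 genes were called lower with the block, against 427 with the block alone. Hk1 passed with the block under that scaling (edgeR adjusted p 0.0382), where 688 of 16095 genes were called higher and the median of all genes was 0.2. With the block alone 516 genes were called higher. Hk3 (1.03, edgeR adjusted p 0.403) missed the threshold, both with the block and without.

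Among 12 tested genes for isozymes of the members' steps and related enzymes, 1 fell with the block. Bpgm, which makes 2,3-bisphosphoglycerate, was at 24.2, 18.5 and 18.5 CPM in injured A, B and C and 40.3, 26.4 and 27.7 CPM in non-injured A, B and C, and the groups did not overlap (log2 fold change -0.63 ± 0.20, SE, edgeR adjusted p 0.149; 0.0169 with the block). The call was lost without the letter A pair (edgeR adjusted p 0.0848 with the block). It was also lost with counts scaled to 6 fast-fibre genes (edgeR adjusted p 0.467), where 0.118% of all genes were called lower. The median of the 12 genes was 0.02. Pfkl, at 0.39, Pfkp, at 0.37, Eno1, at 0.03, and Pfkfb1, at -0.37 on the log2 scale, missed the threshold.

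Lactate dehydrogenase and the redox shuttles regenerate the NAD+ that Gapdh uses. Of 10 tested, 2 fell with the block, both of the glycerol phosphate shuttle. Gpd1, its cytosolic enzyme, was at 113, 79.0 and 105 CPM in injured A, B and C against 146, 142 and 116 CPM (log2 fold change -0.44 ± 0.16, SE, edgeR adjusted p 0.23; 0.0498 with the block). Gpd2, its mitochondrial enzyme, was at 103, 78.9 and 87.6 CPM against 129, 124 and 122 CPM (-0.48 ± 0.14, SE, edgeR adjusted p 0.131; 0.0162 with the block). The groups did not overlap in either. With the block, Gpd1 lost its call without the letter A pair (edgeR adjusted p 0.0746) and the letter B pair (0.452), and Gpd2 without the letter B pair (0.116). Both lost it with counts scaled to 6 fast-fibre genes (edgeR adjusted p 0.669 and 0.593), where 0.118% of all genes were called lower. Ldha, the main form of fast muscle, held 457, 286 and 341 CPM against 586, 422 and 365 CPM, overlapping (-0.34 ± 0.20, SE, edgeR adjusted p 0.453; 0.0835 with the block), and Ldhb was at 0.25. Their ratio was 9.13, 4.53 and 5.30 against 16.3, 6.48 and 7.58 (log2 difference -0.62, exact permutation p 0.3).

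Of 11 genes of the pyruvate dehydrogenase complex with its kinases and phosphatases, and of 8 genes of the pentose phosphate pathway and fructose bisphosphatases, 0 passed with the block. Their medians were -0.12 and -0.07. The smallest p values were those of Pdhb (log2 fold change -0.20), Pdp1 (-0.24), Pdpr (-0.19) and Pdp2 (-0.26) in the first list and of Pgls (0.21), Fbp2 (-0.18), Taldo1 (-0.09) and Rpe (-0.11) in the second.

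Among 20 transcription factors and regulators known to act on glycolytic genes, 1 fell with the block, and the median was -0.16. Six4, a homeobox factor that drives fast-fibre genes, was at 61.7, 63.1 and 61.4 CPM in injured A, B and C and 82.4, 81.2 and 86.2 CPM in non-injured A, B and C, tight in both groups (log2 fold change -0.42 ± 0.13, SE, edgeR adjusted p 0.143; 0.0313 with the block). That call was lost without the letter A, B or C pair (adjusted p 0.07, 0.0743 and 0.112 from edgeR with the block). It was also lost with counts scaled to 6 fast-fibre genes (edgeR adjusted p 0.726), where 0.118% of all genes were called lower. Mef2a was at -0.36 (edgeR adjusted p 0.304; 0.0501 with the block) and Myc was at 0.74 (edgeR adjusted p 0.373). Hif1a, the hypoxia factor, was named after its values were seen and was at -0.16 (edgeR adjusted p 0.733).

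The members followed each other to different degrees. Over the 6 libraries, which share depth and scaling, the median Pearson correlation of a member's log2 CPM with the other 9 was 0.91 for Gpi1, 0.903 for Pgam2 and 0.843 for Eno3, and 0.351 for Pfkfb3 and 0.208 for Aldoa. The highest pair was Pgam2 with Eno3 (0.97) and the lowest Aldoa with Pkm (-0.0369). Among 3468 other genes, the 8 most like the members' mean log2 CPM were Kcna7 (0.998), a potassium channel, Eya4 (0.991), a transcriptional coactivator, Mypn (0.986), a protein of the sarcomere, Casq1 (0.984), the calcium store protein of fast fibres, Rheb and Thoc1 (both 0.982), Ube2b (0.981) and Sgcb (0.98). Casq1 held 633, 553 and 646 CPM in injured A, B and C against 855, 850 and 762 CPM. These genes were picked by their likeness to the members, so their own differences are descriptions with no test.

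The promoter of each member was read from RefSeq (GRCm38.p6), from 250 bases before the start to 50 after it, and all 10 members matched, with 17 windows. The 250 bases before the start are shown for Eno3 and Pgam2, the pair with the highest correlation, and for Pgk1 as a member whose window holds the motif described next, with each ACGTG or its reverse complement, the core of the hypoxia response element, in capitals.
Eno3, chr11:70656926-70657175, plus strand: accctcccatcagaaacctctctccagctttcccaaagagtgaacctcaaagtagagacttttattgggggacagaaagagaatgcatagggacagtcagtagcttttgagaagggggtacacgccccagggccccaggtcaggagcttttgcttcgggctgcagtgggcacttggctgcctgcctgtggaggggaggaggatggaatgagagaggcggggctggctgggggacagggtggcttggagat
Pgam2, chr11:5803797-5804046, minus strand: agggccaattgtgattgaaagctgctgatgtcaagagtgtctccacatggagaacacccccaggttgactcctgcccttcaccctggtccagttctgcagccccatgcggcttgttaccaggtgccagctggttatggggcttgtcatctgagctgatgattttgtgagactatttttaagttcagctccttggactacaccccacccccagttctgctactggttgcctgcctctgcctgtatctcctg
Pgk1, chrX:106186850-106187099, plus strand: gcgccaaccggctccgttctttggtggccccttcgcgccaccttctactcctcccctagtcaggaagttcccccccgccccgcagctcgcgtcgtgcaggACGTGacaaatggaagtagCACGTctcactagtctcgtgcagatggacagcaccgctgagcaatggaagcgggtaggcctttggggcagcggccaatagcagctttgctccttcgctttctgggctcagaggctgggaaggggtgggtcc
The letters ACGTG occur 2 times in this stretch of Pgk1 and 0 times in those of Eno3 and Pgam2. Searched on both strands, ACGTG was in 9 of the 17 member windows, from 6 members (Aldoa, Gapdh, Pfkfb3, Pfkm, Pgk1 and Pkm), and in 19.6% of 32851 windows of all genes. Windows of one gene can overlap, so they are not independent. CACGTG, the E-box of MYC and ChREBP, which contains ACGTG, was in 2 of the 17 windows (Pfkfb3 and Pfkm) and in 7.15% of all windows. The GC box GGGCGG was in 8 of the 17 windows (35.7% of all windows), and CANNTG, any E-box, in 14 of the 17 (72.3%). A match is a description of the letters, and no binding was measured.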

How the data were processed

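Estimated counts for each gene row in 6 libraries of skeletal muscle RNA are what the authors deposited, in 1 table. Per the submitters' processing notes, STAR 2.7.8a, Partek and DESeq2 were used, with builds mm10 and hg19 named without a role; how reads shared by several genes were counted is not given in the sources used here. Per the labels' protocols, RNA was extracted with TRIzol and a column kit. From 72.24% to 74.54% of the deposited counts per library were whole numbers, and the lowest row maximum was 10, so low rows had already been removed. The counts were rounded to whole numbers for testing.

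Injured were compared with non-injured libraries in R 4.3.3 with edgeR 4.0.16 (TMM scaling, default expression filter, which dropped 3920 rows, quasi-likelihood F test, Benjamini-Hochberg over 16095 genes, threshold 0.05). DESeq2 1.42.0 and limma-voom (limma 3.58.1) were alternatives, as were other scalings, filters, left-out libraries and the letter as a block. The scripts were tested on simulated counts. Same-letter libraries deviated together from their group means (correlations 0.316 for A, 0.208 for B and 0.113 for C, each the best match), which was taken as pairing from the data; the labels do not state it. CPM use TMM-scaled totals. Isozyme ratios (6 of 7 planned, Aldoc having no row here) were compared by two-sided exact permutation tests. Named beside the members were genes past the test in either fit, the 4 with the smallest p of each list, genes in a ratio, and the 8 most like the members' mean; some of these are not reported here. Pseudogene copies are rows with 90% or more identity over at least 300 bases to the gene's transcripts in GENCODE M21. The members and lists were chosen with earlier results of these data known.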

Additional observations from a re-analysis of the deposited data

How the results depend on the processing

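The count of members called lower was 0 in the edgeR fit as reported, 2 with DESeq2, 5 with the replicate block and 1 without both letter A libraries. It was 0 with limma-voom, with each other scaling or filter tried, and without each single library. Over the fits without a single library the median log2 fold change of the members ran from -0.48 to -0.34. Scaling to 6 or 9 fast-fibre genes and adding the copies were chosen after seeing the data, as were the blocked fits without a letter pair: scaling to 6 fast-fibre genes put the median at -0.19 and the summed level at -0.04 and scaling to 9 put them at -0.24 and -0.09, and the copies put the median at -0.38. The Pfkfb3/Pfkfb1 ratio, -0.20 as reported, was 0.17 without both letter A libraries, and without single libraries ran from -0.66 to 0.25. The cause was not tested. Without a letter pair, the blocked fit keeps 1 residual degree of freedom per gene and shares the spread across genes.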
